A study of Mus musculus with 11 samples.

Results

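Cytosolic ribosomal proteins are the protein parts of the ribosome that works in the cytoplasm, and their genes were taken from the pancreas and adipose count tables by symbol, as the genes named Rpl or Rps with a number and an optional short suffix. Genes annotated as pseudogenes and symbols ending in -ps were left out. The rule found 79 genes, the same 79 in both tables, of 54532 genes in the pancreas table and 46078 in the adipose table. Of these, 48 belong to the large subunit and 31 to the small subunit by their names. In each tissue 76 of the 79 passed the filter on low counts and were tested. The other 3 are paralogs with counts at or near 0. Rpl10l was at 0 in all 11 libraries, Rpl39l reached at most 0.152 CPM (counts relative to the scaled library size) and Rpl3l at most 0.192 CPM.

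The study modelled obesity-related alcohol-induced acute pancreatitis (OA-AP) in wild-type male mice labelled C57BL/6 (C57BL/6J in the methods of the study) and 16 weeks old. OA-AP mice (labelled Model) ate a diet with 60 kcal% fat for 12 weeks from an age of 4 to 5 weeks and then received ethanol at 2 g/kg by 2 intraperitoneal injections 1 h apart, and tissue was taken 12 h after the first injection. Control mice ate 10 kcal% fat and received saline at the same times. Pancreas came from 2 control and 3 OA-AP mice and epididymal fat (adipose) from 3 and 3, so diet, ethanol and pancreatitis cannot be told apart. Nothing in the labels tells whether a pancreas and an adipose sample came from the same mouse.

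A ribosome needs a single copy of nearly every ribosomal protein, and cells keep the supply of these proteins in step with ribosomal RNA. Their mRNAs typically begin with a C followed by a stretch of pyrimidines, the 5′ terminal oligopyrimidine (TOP) tract, through which the kinase mTORC1 and the RNA-binding protein LARP1 control translation. Acinar cells of the pancreas secrete large amounts of digestive enzymes and are known for their dense ribosomes. Several ribosomal proteins have a close paralog (Rpl22 and Rpl22l1, Rps27 and Rps27l, Rpl7 and Rpl7l1), and some have roles outside the ribosome, such as Rpl5 and Rpl11, which bind Mdm2.

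The sequences around the annotated transcription start are printed for members described most closely, with and without a long run of pyrimidines, the letters a TOP tract is made of. RefSeq windows (GRCm38.p6) of 15 bases before the annotated start and 15 from it onward were read on the gene's strand, and 60 of the 79 genes matched an entry, some with several starts. Capitals mark the longest run of C and T in the window.
Rps6 (chr4:86857353-86857382, minus strand): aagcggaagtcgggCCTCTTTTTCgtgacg
Rps26 (chr10:128626492-128626521, minus strand): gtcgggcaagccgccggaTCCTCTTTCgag
Rps27 (chr3:90213634-90213663, minus strand): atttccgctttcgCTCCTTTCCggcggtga
Rps27l (chr9:66946071-66946100, plus strand): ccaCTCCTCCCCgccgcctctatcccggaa
Rpl22l1 (chr3:28805493-28805522, plus strand): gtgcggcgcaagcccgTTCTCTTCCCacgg
Rpl13a (chr7:45128731-45128760, minus strand): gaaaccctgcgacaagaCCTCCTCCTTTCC
Rps2 (chr17:24720048-24720077, plus strand): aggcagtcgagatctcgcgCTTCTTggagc
Rpl7l1 (chr17:46782642-46782671, minus strand): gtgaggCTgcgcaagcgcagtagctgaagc
The longest runs were 10 bases in Rps6 and Rpl22l1, 9 in Rps26, Rps27 and Rps27l and 13 in Rpl13a, while Rps2 had 6 and Rpl7l1 had 2. A run of at least 8 bases of C or T, searched on the gene's strand only, was present in 27 of 72 ribosomal protein promoters, or 37.5%, against 12.0% of all 32851 promoter windows of that length in the table and 9 of 75 (12.0%) of those of mitochondrial ribosomal proteins. A run of letters does not by itself show a TOP tract, since annotated starts can lie some bases away from the base where the mRNA begins.

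Library totals were 14188832 to 17238919 gene counts in pancreas and 20825177 to 27928097 in adipose tissue. The tissues matched their labels: 20 acinar cell markers took 49.0% to 62.6% of pancreas counts, and 8 adipocyte markers summed to 35047 to 44130 CPM in adipose tissue but 47.0 to 271 CPM in pancreas. Adipose control replicate 2 stood apart in holding 0.761% of its counts on the acinar markers, against at most 0.00193% in the other adipose libraries. The acinar share of the pancreas was 61.8% ± 1.14 (SD, n = 2) in control and 49.8% ± 0.869 (SD, n = 3) in OA-AP mice. TMM factors, which rescale a library so that most genes do not change, were 0.698 and 0.793 for control pancreas and 1.11 to 1.32 for OA-AP pancreas. CPM values below are scaled with these factors, and fold changes are log2 of OA-AP over control.

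The share of all pancreas counts that fell on the 79 genes was 1.74% and 1.68% in control mice and 2.35%, 2.20% and 2.24% in OA-AP mice. The groups did not overlap, and the OA-AP group was higher. Among the counts outside the 20 acinar markers the share was 4.47% ± 0.0354 (SD, n = 2) in control and 4.51% ± 0.0881 (SD, n = 3) in OA-AP mice, and the groups overlapped. In adipose tissue the share was 1.53%, 1.67% and 1.75% in control and 2.17%, 1.75% and 1.92% in OA-AP mice. The OA-AP libraries lay above the control libraries there, with OA-AP replicate 2 only just above control replicate 3. Counts on large subunit genes were 1.39 to 1.45 times those on small subunit genes in every one of the 11 libraries.

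In control pancreas the genes with the highest level per kilobase of gene length were Rpl41 (802 CPM per kilobase), which codes for one of the shortest proteins known, Rpl32 (606), Rpl36 (565), Rps15 (532) and Rps3a1 (526). In control adipose tissue Rps15 (430 CPM per kilobase), Rps3a1 (404), Rpl17 (342) and Rps2 (284) were among the highest. The median of the 76 tested genes was 148 CPM per kilobase in pancreas and 106 in adipose tissue, with quartiles of 79.9 and 230.1 in pancreas and of 59.1 and 172 in adipose tissue. Across the 76 genes the control levels of the tissues had a Pearson correlation of 0.65 on the log2 scale and a Spearman correlation of 0.72. These describe genes that share libraries and lengths, and no test was made.

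A group of 6 genes lay over 4-fold below the median pancreas to adipose ratio: Rps10, Rpl13a, Rpl21, Rpl17, Rpl7a and Rps27. Rps10, a small subunit protein, was at 1.20 and 1.69 CPM in control and 1.36, 1.37 and 1.62 CPM in OA-AP pancreas, but at 171 to 187 CPM in control and 203 to 249 CPM in OA-AP adipose tissue. The pancreas table lists a gene named RPS10-NUDT3 on the same strand over Rps10, and the adipose table does not list it. Rpl13a was at 5.46 to 10.98 CPM in pancreas and 296 to 426 CPM in adipose tissue. The tables list different gene sets, with 45260 genes in both. For Rpl13a, Rpl21, Rpl17 and Rpl7a the overlapping genes are listed in both tables, and the cause of their low pancreas counts was not tested. Levels of the 6 genes set across tissues are uncertain, as are fold changes of the low genes in pancreas. Genes named as ribosomal protein pseudogenes (256 symbols ending in -ps) held counts equal to 4.22% to 4.51% of the members' counts in pancreas and 0.787% to 0.873% in adipose tissue. Reads that fit a gene and its processed pseudogenes equally well may be lost or split in such counts. Of the 79 genes, 45 overlapped another listed gene, among them small nucleolar RNA genes within the gene, and 3 overlapped a protein-coding gene on the same strand. A gene on the other strand overlapped 22, and the strand setting of the counting is not given in the sources used here.

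**Figure D1:**
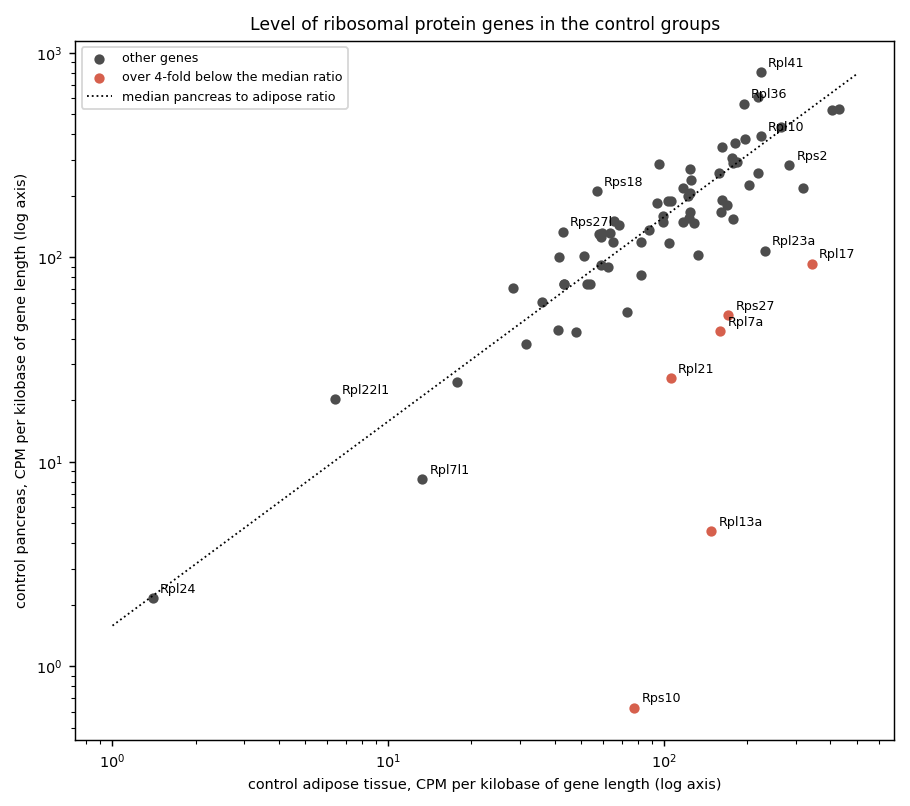
Control level of 76 tested ribosomal protein genes in adipose tissue (x axis) and pancreas (y axis), both in CPM per kilobase on log axes; each point is a gene, and the dotted line is the median pancreas to adipose ratio. The 6 coloured genes lie over 4-fold below that ratio, Rps10 and Rpl13a farthest.

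In the pancreas, the comparison of OA-AP with control mice asked how ribosomal protein genes changed against the other expressed genes during pancreatitis. With TMM scaling 9 of the 76 genes were called lower and 0 higher, where a call needs both an adjusted p below 0.05 and a change of 1.5-fold or more. Of all 12884 tested genes 13.5% were called lower and 16.2% higher, so the number of lower calls was close to the background share, while no gene was called higher. With adjusted p alone 23 were lower and 0 higher, beside a background of 15.2% and 17.8%. At an unadjusted p under 0.05, 38 were lower and 1 was higher, beside 20.6% and 24.2%. DESeq2 called 7 lower and 0 higher, beside 11.2% and 13.7% of all genes it tested. The fold change was below 0 for 71 of 76 genes with TMM and for 4 with library totals alone, against 48.1% of all tested genes with TMM. Every OA-AP library lay below every control library for 54 of the 76, against 29.4% of all tested genes. The median log2 fold change was -0.31 for the ribosomal protein genes and 0.04 for all tested genes.

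The direction of this pancreas result depended on the scaling. With library totals alone the median turned to 0.40, with 8 genes called higher and 0 lower, while the median of all tested genes moved to 0.75 and 45.3% of them were called higher and 3.93% lower. The median of the ribosomal protein genes lay 0.35 below that of all tested genes, a distance that another library size leaves nearly the same by construction. With TMM factors computed without the acinar markers 9 genes were again called lower and 0 higher. In bulk tissue, fewer cells of a type and less RNA per cell cannot be told apart, and the acinar share was lower in the OA-AP libraries. Leaving out pancreas control replicate 2, which leaves 1 control library, gave a median of -0.23. Leaving out OA-AP replicate 1 left 5 genes called lower, beside 9.88% of all tested genes.

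**Figure D2:**
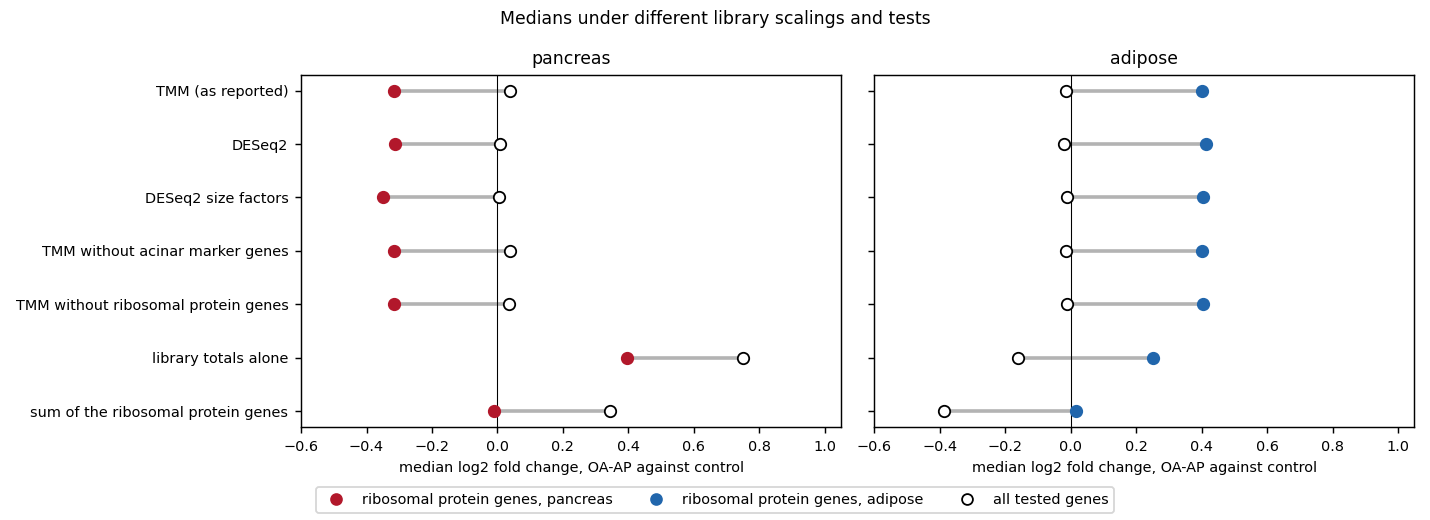
Median log2 fold change of OA-AP against control (x axis) for ribosomal protein genes (filled) and for all tested genes (open) in pancreas and adipose tissue, with one line for each library scaling or test. The pancreas median is -0.31 with TMM and 0.40 with library totals alone, and it is below the median of all tested genes in each line, a distance that scaling leaves nearly the same by construction; the adipose median is above it.

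Rps2 (uS5, a small subunit protein near the decoding site; chr17:24718116-24721929, GRCm38) was at 532 and 505 CPM in control and 258, 240 and 251 CPM in OA-AP pancreas. The groups were far apart, each with little spread. It was called lower with a log2 fold change of -1.05 (SE 0.12, adjusted p = 0.000720). Rpl3 (uL3, at the peptidyl transferase centre; chr15:80077791-80091868) was at 458 and 482 CPM in control and 242, 246 and 260 CPM in OA-AP pancreas, a log2 fold change of -0.92 (SE 0.12, adjusted p = 0.00129). Rpl22l1 (the paralog of the RNA-binding protein Rpl22; chr3:28805436-28807424) was at 42.8 and 37.9 CPM in control and 18.7, 21.5 and 19.8 CPM in OA-AP pancreas. Its log2 fold change was -1.01 (SE 0.14, adjusted p = 0.00134), again with no overlap. None of these 3 genes was called with library totals alone, at -0.34 for Rps2 (adjusted p = 0.0703), -0.31 for Rpl22l1 (adjusted p = 0.171) and -0.21 for Rpl3 (adjusted p = 0.207).

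The lowest fold change belonged to Rpl24, a large subunit protein that is reduced in the Belly spot and tail mouse, at -1.88 (SE 0.45, adjusted p = 0.0156). Rpl24 was at only 1.63 and 2.79 CPM in control and 0.735, 0.572 and 0.471 CPM in OA-AP pancreas, and it was as low in adipose tissue (0.808 to 1.48 CPM). The table lists an overlapping gene, Gm28037, on the same strand, so the counts of Rpl24 are uncertain. Rpl13a, part of the interferon-induced complex that silences inflammatory mRNAs, was called lower at -0.65 (SE 0.21, adjusted p = 0.0458) on the low pancreas counts given above. It was not called with DESeq2 (adjusted p = 0.106), without the filter (adjusted p = 0.0687), or without control replicate 1, control replicate 2 or OA-AP replicate 1 (adjusted p = 0.32, 0.0872 and 0.139).

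Rps27l (chr9:66946086-66949516), the p53-responsive paralog of Rps27, was at 102 and 116 CPM in control and 70.6, 66.1 and 71.1 CPM in OA-AP pancreas and was called lower at -0.65 (SE 0.13, adjusted p = 0.00602). Rpl22 was at 119 and 133 CPM in control and 81.3, 83.6 and 87.1 CPM in OA-AP mice, with a log2 fold change of -0.59 (SE 0.12, adjusted p = 0.00859) that lay just past the fold threshold and under it with DESeq2 (-0.58). Without control replicate 2, which leaves 1 control library, both lay under the fold threshold, at -0.55 for Rps27l and -0.50 for Rpl22. Without OA-AP replicate 1 Rpl22 was not called (-0.57, adjusted p = 0.0544). The groups of Rps27l and of Rpl22 did not overlap. Rpl35a and Rpl38, large subunit proteins, were also called lower at -0.64 and -0.63 (adjusted p = 0.0432 and 0.0188). With library totals alone Rps27l, Rpl22 and Rpl13a turned to 0.06, 0.13 and 0.04.

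At the other end, Rpl7l1, a paralog of Rpl7 known from ribosome assembly, had the highest value, at 26.6 and 30.8 CPM in control and 37.6, 34.4 and 38.1 CPM in OA-AP pancreas. Its log2 fold change of 0.36 (SE 0.14) missed the threshold (adjusted p = 0.0788), whereas it was called higher with library totals alone (1.07, adjusted p = 0.000417) and with the summed ribosomal protein counts as library size (0.66, adjusted p = 0.00629). Rps27, Rpl8, Rps13 and Rps10 followed with 0.08, 0.06, 0.06 and 0.01, each within its standard error of 0. Rps27 varied most between libraries, at 31.9 and 76.7 CPM in control and 27.3, 84.9 and 59.4 CPM in OA-AP mice.

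Of the members with roles outside the ribosome, Rpl11 was at 350.0 and 429 CPM in control and 281, 277 and 322 CPM in OA-AP pancreas (log2 fold change -0.41, SE 0.15, adjusted p = 0.0626). Rpl5 had -0.16 (SE 0.13, adjusted p = 0.372) and Rps3, which also acts in DNA repair and NF-κB signaling, -0.20 (SE 0.13, adjusted p = 0.251). Rps6, the substrate of S6 kinase, was at 574 and 580 CPM in control and 531, 562 and 616 CPM in OA-AP mice. Its groups overlapped, with a log2 fold change of -0.02 (SE 0.13, adjusted p = 0.933). None of these 4 passed the test in the pancreas with TMM. Scaled by library totals alone, Rps6 was called higher at 0.69 (adjusted p = 0.0015), and Rpl5 at 0.55 (adjusted p = 0.00511) and Rps3 at 0.50 (adjusted p = 0.00858) lay under the fold threshold.

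In adipose tissue the same comparison gave the opposite sign. With TMM scaling 5 of 76 genes were called higher and 0 lower, while 12.1% of all 15839 tested genes were called higher and 13% lower. DESeq2 also called 5 higher and 0 lower, beside 11.1% and 11.4% of all genes it tested. The share of members called was thus below the background. With adjusted p alone 41 of 76 were higher and 0 lower, against a background of 19.4% and 17.5%, and at an unadjusted p under 0.05, 50 were higher and 0 lower, against 24.2% and 23.3%. The fold change was above 0 for 75 of 76 genes, against 48.8% of all tested genes, and every OA-AP library lay above every control library for 52, against 26.4%. The median log2 fold change was 0.40, and that of all tested genes was -0.01. With library totals alone the medians were 0.25 and -0.16, with 1 gene, Rpl7l1, called higher and 0 lower, against 8.74% and 17.9% of all tested genes. The sign of the median was thus the same with both scalings.

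OA-AP replicate 1 was the highest of the 6 adipose libraries for 74 of the 76 genes. Without it 1 gene was called higher, beside 11.2% of all tested genes, and the median was 0.30. Without OA-AP replicate 2, 16 genes were called higher, beside 13.2%. Without control replicate 3, 9 were called, beside 9.68%, and without control replicate 1, 3, beside 10.3%. Without control replicate 2, the library with acinar counts, the number stayed at 5, beside 11.4%. The number of calls past 1.5-fold thus rested on single libraries, whereas the median stayed between 0.30 and 0.48.

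**Figure D3:**
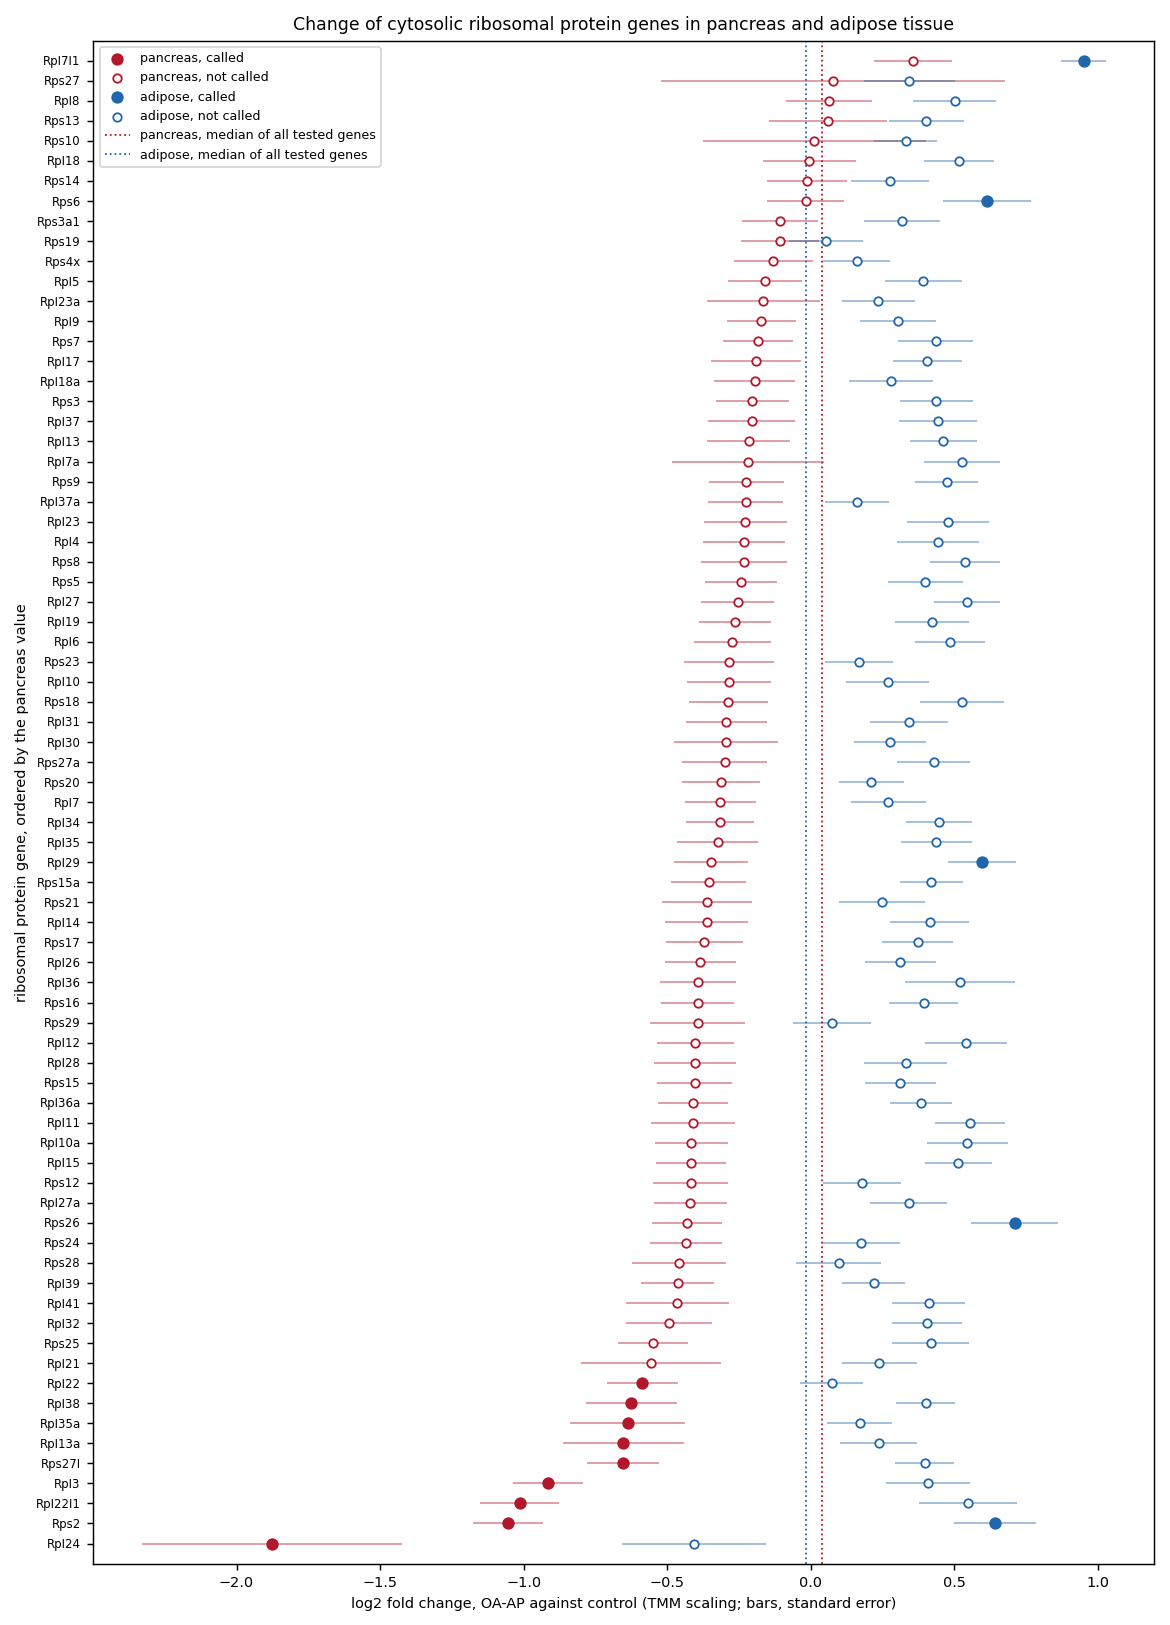
Log2 fold change of OA-AP against control with TMM scaling (x axis; bars are standard errors) for 75 of the 76 tested ribosomal protein genes (y axis, ordered by the pancreas value) in pancreas (red) and adipose tissue (blue). Filled points passed an adjusted p of 0.05 and a 1.5-fold change; of the 76 tested genes 71 were below 0 in pancreas, a side that turns with library totals alone, and 75 above 0 in adipose tissue.

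Rpl7l1 (chr17:46773907-46782672) had the largest adipose change. It was at 46.9, 47.9 and 44.4 CPM in control and 91.3, 86.3 and 91.2 CPM in OA-AP adipose tissue, with a log2 fold change of 0.95 (SE 0.08, adjusted p = 0.000508). The 2 groups were wide apart and each was tight, and replicate 1 did not stand out. Rps26 (chr10:128624534-128626747), a protein at the mRNA exit of the small subunit, was at 239, 252 and 256 CPM in control and 486, 331 and 405 CPM in OA-AP mice, a log2 fold change of 0.71 (SE 0.15, adjusted p = 0.0110). Rps2 was at 498, 493 and 566 CPM in control and 922, 699 and 808 CPM in OA-AP mice, a log2 fold change of 0.64 (SE 0.14, adjusted p = 0.0130). With TMM and all libraries, Rps2 was thus called lower in the pancreas and higher in adipose tissue. Without OA-AP replicate 1 the adipose values of Rps26 and Rps2 fell under the fold threshold, at 0.57 and 0.54. With library totals alone they also lay under it, at 0.56 and 0.49.

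Rps6 (chr4:86854660-86857412) was at 258, 291 and 309 CPM in control and 523, 377 and 415 CPM in OA-AP adipose tissue (log2 fold change 0.61, SE 0.15, adjusted p = 0.0189). Rpl29 (chr9:106429454-106431568), a large subunit protein also described at the cell surface, was at 191, 199 and 209 CPM in control and 342, 273 and 290 CPM in OA-AP mice (0.60, SE 0.12, adjusted p = 0.00826). Neither had overlapping groups, and in both the first OA-AP replicate was the highest. Without that library both fell under the fold threshold, at 0.47 for Rps6 and 0.50 for Rpl29. Rpl11 had 0.56 (SE 0.12, adjusted p = 0.0120) and Rps3 0.44 (SE 0.13, adjusted p = 0.0336), under the fold threshold. Rpl5 missed the adjusted p at 0.39 (SE 0.13, adjusted p = 0.0541), and so did Rpl13a at 0.24 (SE 0.13, adjusted p = 0.1996).

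The lowest adipose values were those of Rpl24 (-0.41, SE 0.25, adjusted p = 0.238, at the low counts above), Rps19 (0.05), Rpl22 (0.07), Rps29 (0.07) and Rps28 (0.10). Rps19, the gene most often mutated in Diamond-Blackfan anemia, was at 162, 163 and 181 CPM in control and 205, 160.1 and 159.9 CPM in OA-AP mice. Its groups overlapped, as did those of Rpl22, Rps28 and Rps29. The values of Rps19, Rpl22, Rps28 and Rps29 turned below 0 with library totals alone (-0.09 to -0.05).

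Several marker lists moved with the groups in adipose tissue. The 7 neutrophil markers summed to 6.90 to 12.8 CPM in control and 179 to 197 CPM in OA-AP mice, and 6 of 6 tested were called higher. The 7 macrophage markers summed to 746 to 907 and 1023 to 1394 CPM (4 of 7 called higher, 1 lower), the 7 fibroblast markers to 3359 to 4242 and 2028 to 2497 CPM (5 of 7 called lower), and the 9 T and B cell markers to 12.1 to 47.4 and 3.27 to 5.40 CPM (6 of 8 called lower). The 8 adipocyte markers gave 40799 to 44130 CPM in control and 35047 to 43090 CPM in OA-AP mice. None of the markers of these lists was at 0 in every adipose library, and their part in the ribosomal protein values was not tested. In the pancreas the neutrophil markers summed to 1.03 to 1.89 CPM in control and 3.60 to 101 CPM in OA-AP mice (0 of 6 tested called), and 14 of 20 acinar markers were called lower. The 8 adipocyte markers summed to 47.0 to 61.8 CPM in control and 135 to 271 CPM in OA-AP pancreas (2 of 3 tested called higher), and the 6 endothelial markers to 64.5 to 86.0 and 54.3 to 70.4 CPM (2 of 6 called lower). Their part in the pancreas values was not tested.

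**Figure D4:**
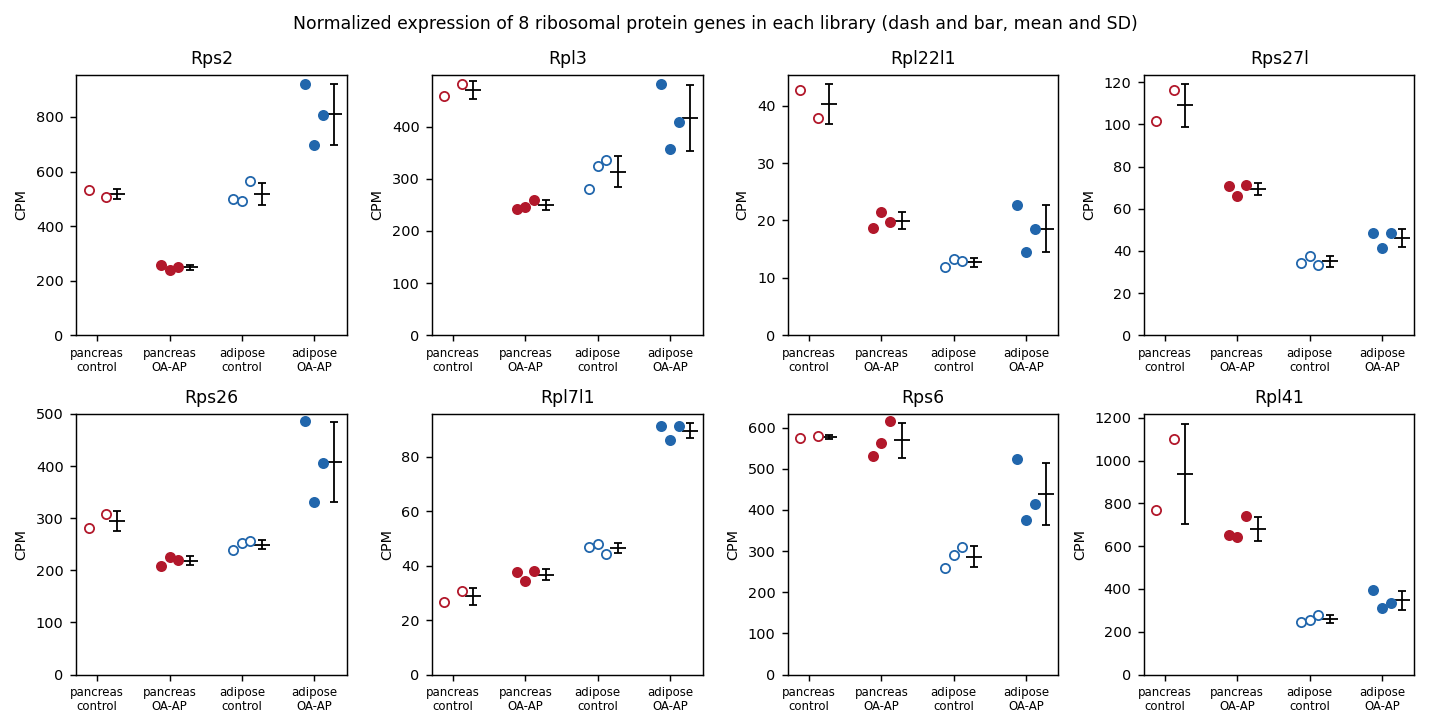
CPM with TMM scaling (y axis, from 0) of 8 ribosomal protein genes in each library of the 4 groups; open points are control and filled points OA-AP libraries, and the dash and bar give the mean and SD (n = 2 or 3). Rps2, Rpl3, Rpl22l1 and Rps27l have lower OA-AP points in pancreas and higher ones in adipose tissue (with library totals alone Rps27l turns to 0.06 in pancreas), whereas Rpl7l1 is higher in both.

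The difference between the tissues was tested as the tissue by condition term over all 11 libraries, as the adipose minus the pancreas change. The term was above 0 for 76 of 76 genes, and 45 passed an adjusted p of 0.05, all with the more positive change in adipose tissue. Of all 17046 tested genes 21.3% passed, 10.8% with the more positive change in adipose tissue. The median term was 0.68, against -0.06 over all tested genes. In 70 genes the fold change was below 0 in the pancreas and above 0 in adipose tissue. This held for TMM scaling: with library totals alone the median was -0.17 while that of all tested genes was -0.88, and 2 genes were called positive and 3 negative, against 2.31% and 36.8% of all tested genes. The tables list different gene sets, and the comparison of fold changes assumes that a gene was counted alike within each table.

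The largest terms among genes past the threshold were those of Rps2 (1.68, SE 0.20, adjusted p = 0.000204), Rpl22l1 (1.55, SE 0.22, adjusted p = 0.000617) and Rpl3 (1.31, SE 0.20, adjusted p = 0.000945). Rps26 had 1.13 (SE 0.20, adjusted p = 0.00224), Rps27l 1.04 (SE 0.16, adjusted p = 0.000884), Rpl11 0.95 (SE 0.20, adjusted p = 0.00581) and Rpl29 0.93 (SE 0.17, adjusted p = 0.00286). Scaled by library totals alone, Rps2 (0.84, adjusted p = 0.00936) and Rpl22l1 (0.71, adjusted p = 0.038) passed the threshold, and the other 5 did not, at 0.46 for Rpl3, 0.28 for Rps26, 0.19 for Rps27l, 0.10 for Rpl11 and 0.08 for Rpl29 (adjusted p from 0.0868 to 0.757). Rpl7l1 had 0.58 (SE 0.14, adjusted p = 0.0126) although its fold change was positive in both tissues, and its term turned to -0.27 with library totals alone. Rps19, Rps4x and Rps27 had small terms (0.15, 0.28 and 0.25) that missed the threshold (adjusted p = 0.659, 0.347 and 0.827). Without pancreas control replicate 2, which leaves 1 control library, the median term was 0.62. The number of genes past the threshold fell to 29 without pancreas OA-AP replicate 1, beside 9.24% of all tested genes called positive. Without adipose control replicate 1 it fell to 20, beside 8.18%. Without adipose OA-AP replicate 1 it fell to 25, beside 8.44%, and without adipose OA-AP replicate 3 also to 25, beside 7.78%.

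The ratio of a paralog to its partner within a library does not depend on scaling. Of 7 paralog pairs, 3 met the conditions for a ratio. These were a paralog among the 79 genes and at least 10 counts of each gene in every library of the tissue. Counts on Rpl7l1 were 6.73% and 7.71% of those on Rpl7 in control pancreas and 11.1% to 12.2% in OA-AP pancreas, and 12.2% to 14.9% and 19.7% to 23.9% in adipose tissue. The log2 ratio rose in the mean by 0.67 and 0.68, with no overlap in either tissue. Counts on Rpl22l1 were 28.5% and 35.9% of those on Rpl22 in control pancreas and 22.7% to 25.7% in OA-AP pancreas, but 8.57% to 9.45% in control and 10.8% to 14.5% in OA-AP adipose tissue. The mean log2 ratio thus differed by -0.43 in the pancreas and by 0.45 in adipose tissue, with groups that did not overlap in either tissue. For each of these 4 comparisons the exact two-sided permutation test gave p = 0.1, the smallest p that 2 against 3 or 3 against 3 samples allow, and 0.15 after adjustment over 6 tests, so none could pass 0.05. Rps27l over Rps27 differed by -0.71 in the pancreas (exact p = 0.4) and 0.06 in adipose tissue (exact p = 0.7), with overlapping groups.

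Rps27l was more abundant than Rps27 in most pancreas libraries (77.9% to 319% of its counts) and far less abundant in adipose tissue (16.4% to 23.4%). Rps27 is one of the 6 genes with low pancreas counts against adipose tissue, so this contrast carries the counting uncertainty given above. Both genes carry a 9-base pyrimidine run in the windows printed above, in Rps27l before the annotated start.

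By subunit, in the pancreas 7 of 45 tested large subunit genes and 2 of 31 small subunit genes were called lower. Of all tested genes 13.5% were called lower there. The medians were -0.32 and -0.30. In adipose tissue 2 of 45 and 3 of 31 were called higher, beside 12.1% of all tested genes, with medians of 0.41 and 0.37. A difference between the subunits was not tested.

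The rule does not match the symbols of 7 further cytosolic ribosomal protein genes, Rplp0 and Rpl36al among them. Of these, 2 were called lower in the pancreas and 1 higher in adipose tissue, with medians of -0.42 and 0.43. Over all tested genes the shares were 13.5% and 12.1%. Rpl36al was at 1.46 and 2.09 CPM in control and 0.368, 0.458 and 0.471 CPM in OA-AP pancreas (-2.02, SE 0.46, adjusted p = 0.0127), on low counts. In adipose tissue it was at 41.4, 45.2 and 38.9 CPM in control and 73.1, 54.9 and 73.0 CPM in OA-AP mice (0.68, SE 0.13, adjusted p = 0.00771). Rplp0, the base of the ribosomal stalk and a frequent reference gene in PCR, had -0.25 in the pancreas (SE 0.15, adjusted p = 0.232) and 0.51 in adipose tissue (SE 0.14, adjusted p = 0.0286).

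Of 18 other genes of the translation machinery with known TOP mRNAs, 1 was called lower in the pancreas and 4 higher in adipose tissue (medians -0.16 and 0.33). The shares over all tested genes were 13.5% and 12.1%. Npm1, a nucleolar chaperone of ribosome assembly, was at 98.2 and 86.4 CPM in control and 58.8, 68.8 and 47.0 CPM in OA-AP pancreas. Its log2 fold change was -0.67 (SE 0.17, adjusted p = 0.0210), and 0.05 with library totals alone. It was not called without OA-AP replicate 1 (adjusted p = 0.0696). It lay under the fold threshold without control replicate 1 (-0.56), without OA-AP replicate 3 (-0.58) and with the replicate number as a block (-0.54). Without control replicate 2 it was -0.75. Leaving out either control replicate leaves 1 control library, so neither value shows that the call held. In adipose tissue Npm1 was at 124, 155 and 176 CPM in control and 331, 236 and 322 CPM in OA-AP mice (0.97, SE 0.18, adjusted p = 0.00692). Eef1g, a subunit of elongation factor 1, had -0.53 in the pancreas (SE 0.15, adjusted p = 0.0283), or 0.18 with library totals alone, under the fold threshold, and was called higher in adipose tissue at 0.81 (SE 0.13, adjusted p = 0.00393).

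The mTORC1 pathway and other regulators of TOP mRNA translation gave a list of 15 genes. Of these, 4 were called higher and 0 lower in the pancreas, and 3 higher and 0 lower in adipose tissue. Over all tested genes, 16.2% were called higher and 13.5% lower in the pancreas, and 12.1% higher and 13% lower in adipose tissue. Ddit4 (REDD1), a stress-induced inhibitor of mTORC1, was at 33.6 and 31.7 CPM in control and 384, 268 and 586 CPM in OA-AP pancreas, a log2 fold change of 3.66 (SE 0.36, adjusted p = 0.000704). In adipose tissue its groups overlapped, at 47.8, 76.7 and 40.7 CPM in control and 61.6, 83.5 and 45.8 CPM in OA-AP mice. Mtor, the kinase itself, was called higher in the pancreas at 0.93 (SE 0.17, adjusted p = 0.00449). Pdcd4, an inhibitor of the helicase eIF4A, was called higher in the pancreas at 1.00 (SE 0.27, adjusted p = 0.0272) and in adipose tissue at 0.60 (SE 0.10, adjusted p = 0.00418), where the value lay just past the fold threshold and under it with library totals alone (0.46) and without a filter (0.58). Tsc1, a brake on mTORC1, had -0.51 in adipose tissue (SE 0.08, adjusted p = 0.00314), under the fold threshold. It was called lower there with library totals alone (-0.66, adjusted p = 0.00129). The summed ribosomal protein counts as library size gave -0.89 (adjusted p = 0.00184), also a lower call.

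Dedicated chaperones carry single ribosomal proteins to the assembly site. Of 6 listed, 5 were tested, and 2 were called higher in adipose tissue and 0 in the pancreas. Over all tested genes the shares called higher were 12.1% and 16.2%. Grwd1, the chaperone of Rpl3, was at 9.74, 11.3 and 8.58 CPM in control and 35.7, 23.8 and 32.1 CPM in OA-AP adipose tissue (1.63, SE 0.18, adjusted p = 0.00119). Heatr3, which works with Rpl5 and Rpl11, was at 27.5, 25.7 and 27.1 CPM in control and 62.5, 43.8 and 50.9 CPM in OA-AP mice (0.97, SE 0.13, adjusted p = 0.00243). Neither gene's groups overlapped, and both fold changes were above that of every tested ribosomal protein gene in adipose tissue.

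Mitochondrial ribosomal proteins serve a separate ribosome in another compartment. Of 77 tested, 16 were called lower and 2 higher in the pancreas (median -0.25), and 6 higher and 0 lower in adipose tissue (median 0.19). Over all tested genes, 13.5% were called lower and 16.2% higher in the pancreas, and 12.1% higher and 13% lower in adipose tissue. Their pancreas fold changes spread from -2.33 to 0.77 with an SD of 0.57, against an SD of 0.29 for the 76 cytosolic genes, and 54 of 77 lay below 0. In adipose tissue the SDs were 0.26 and 0.18. These list medians hold for TMM scaling alone, and a difference between the lists was not tested.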

How the data were processed

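Total RNA libraries (NEBNext Ultra kit, paired-end NovaSeq reads) of 5 pancreas and 6 epididymal adipose samples were used. Per the labels and the methods of the study, the authors trimmed reads with Trim Galore 0.6.6, checked them with fastp 0.20.1, mapped them to GRCm38 with STAR and counted genes with featureCounts 2.0.1, and they deposited whole-number counts without normalization. The annotation release and strand setting are not given in the sources used here. Gene lengths and coordinates came from the deposited pancreas table and served both tissues for levels per kilobase.

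Counts were tested with edgeR 4.0.16 in R 4.3.3 (filterByExpr, TMM, robust quasi-likelihood test), fitted on each whole table with Benjamini-Hochberg adjustment over all tested genes. A call needed an adjusted p below 0.05 and a change of 1.5-fold or more, and the tissue by condition term only the former. Dividing the size of a log2 fold change by the root of its F statistic gave its SE. Paralog ratios were tested with exact permutation tests (two-sided). P-values measure the spread between the deposited samples, each counted as 1 animal by its label. Replicates differed by more than counting noise (chi-square per degree of freedom 6.91 to 67.1). No molecular identifiers were used, so reads are not independent molecules, and depth was 14188832 to 27928097 counts per library.

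The ribosomal protein genes and all lists were chosen with earlier results of these data known. Named genes were the 5 highest and 5 lowest members in fold change and the 5 highest in control level per tissue, the paralogs with their partners, Rpl5, Rpl11, Rps6, Rpl13a and Rps3, the 3 with the smallest p of the tissue by condition term, and up to 2 genes per list and tissue with the smallest p. Rpl35a, Rpl38 and the other genes with low pancreas counts were named after their values were seen. A few of these genes are not reported here. Alternatives were DESeq2 1.42.0, other scalings and filters, other fold thresholds, each replicate left out, and the replicate number as a block. Same-numbered samples did not deviate together (correlations from -0.16 to 0.09), and the numbers were not taken as pairs. With groups this small the correlations cannot tell whether 2 samples came from the same mouse. The edgeR and DESeq2 fits were tested on simulated counts.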

Additional observations from a re-analysis of the deposited data

Results flagged for a closer look

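Among the named genes, 16 had a change that differed between adipose tissue and pancreas in the tissue by condition test (edgeR, adjusted p under 0.05). Given as the adipose minus the pancreas log2 fold change, they were Rps2 (1.68), Rpl22l1 (1.55), Rpl3 (1.31), Rps26 (1.13), Rps27l (1.04), Rpl11 (0.95), Rpl29 (0.93), Rpl36 (0.90), Rpl32 (0.89), Rpl13a (0.88), Rpl41 (0.86), Rps15 (0.70), Rpl39 (0.67), Rpl22 (0.65), Rps3 (0.63) and Rpl7l1 (0.58). Of these, only Rps2 and Rpl22l1 passed the threshold with library totals alone, and Rpl22, Rpl39, Rps15, Rps3 and Rpl7l1 turned below 0. Of the 76 tested genes 63 were called in neither tissue alone. Rpl7l1 differed from the other 15 in that its fold change was positive in both tissues. No group held 4 or more samples, so no single library was tested as standing apart.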

How the results depend on the processing

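With library totals alone the pancreas gave 8 ribosomal protein genes called higher, 0 lower and a median log2 fold change of 0.40, adipose tissue 1 called higher and a median of 0.25, and the tissue by condition term 2 higher, 3 lower and a median of -0.17. Over all tested genes the share of called genes that were higher went from 54.5% to 92.0% in the pancreas, from 48.1% to 32.8% in adipose tissue and from 50.7% to 5.90% for the term. With the summed counts of the ribosomal protein genes as library size, the pancreas had 1 higher, 4 lower and a median of -0.010, adipose tissue 0 higher and a median of 0.015, and the term 3 higher, 1 lower and a median of 0.0046, with all-gene shares of 78.2%, 16.7% and 8.82%. The median of the ribosomal protein genes minus that of all tested genes was -0.44 to -0.32 in the pancreas and 0.38 to 0.48 in adipose tissue over all tests, scalings and filters, of which scalings leave it nearly the same by construction. DESeq2, its size factors in edgeR, TMM without acinar or without ribosomal protein genes and a minimum of 10 counts kept each of these counts within 1.5 times and each median's sign. Without a filter 4 pancreas genes were called lower, beside 7.70% of all tested genes. Without a fold threshold 23 were lower in the pancreas and 41 higher in adipose tissue, beside 15.2% and 19.4% of all tested genes. With a fold change of at least 2 the counts were 3 and 0. The share of all tested genes at that threshold is not given here, so these counts are not read against a background. Outside the acinar markers the pancreas shares were 4.47% and 4.51%.

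Leaving out each replicate gave 3 to 10 pancreas genes called lower with medians of -0.43 to -0.23, 1 to 16 adipose genes called higher, and 18 to 55 genes past the threshold for the term with medians of 0.55 to 0.75. The 10 pancreas genes came without OA-AP replicate 3, beside 17.03% of all tested genes called lower. The 1 and 16 adipose genes stood beside 11.2% and 13.2% called higher, and the 55 genes for the term beside 11.4% called positive. The lowest pancreas count and the lowest count for the term came without pancreas control replicate 2. That leaves 1 control library, so these 2 counts are not read against a background. The log2 ratio of Rps27l to Rps27 in adipose tissue ranged from -0.075 to 0.16. Single genes that changed sign ranged in the pancreas from -0.42 to 0.84 (Rps27), -0.088 to 0.12 (Rpl8), -0.24 to 0.44 (Rps13), -0.21 to 0.28 (Rps10) and -0.12 to 0.022 (Rps6), and in adipose tissue from -0.069 to 0.12 (Rps19), -0.044 to 0.16 (Rps29) and -0.050 to 0.20 (Rps28).

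With the replicate number as a block, 9 pancreas genes were lower, 4 adipose genes higher and 22 genes past the threshold for the term. Over all tested genes, 14.3% were lower in the pancreas and 11.02% higher in adipose tissue under the block. For the term 6.24% were called positive, against 10.8% without the block. No pair's correlation rose above 0.1, which cannot tell whether same-numbered samples came from the same mouse. Under the block Rps27, Rpl8 and Rps10 in the pancreas had -0.026, -0.040 and -0.064. Rps10 had -0.021 with DESeq2 size factors and Rps6 had 0.056 without a filter.

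Library totals alone turned these pancreas values: Rps27l 0.063, Rpl7 0.39, Rpl10 0.42, Rpl22 0.13, Rpl39 0.25, Rps4x 0.58, Rpl5 0.55, Rpl11 0.30, Rps6 0.69, Rpl13a 0.044, Rps3 0.50, Npm1 0.049, Eef1g 0.18 and Aamp 0.38. In adipose tissue they turned Rps19 (-0.094), Rpl22 (-0.074), Rps29 (-0.075) and Rps28 (-0.052), and the terms of Rpl22 (-0.20), Rpl39 (-0.18), Rpl7l1 (-0.27), Rps15 (-0.14) and Rps3 (-0.22). The summed ribosomal protein counts as library size turned Rpl10 (0.013), Rps4x (0.18), Rpl5 (0.14), Rps6 (0.28) and Rps3 (0.10) in the pancreas, and Rps19 (-0.33), Rpl22 (-0.30), Rps29 (-0.31), Rps28 (-0.29), Rpl7 (-0.11), Rpl10 (-0.11), Rpl39 (-0.16), Rps27 (-0.042), Rps4x (-0.22) and Rpl13a (-0.15) in adipose tissue. The terms turned were Rpl22 (-0.025), Rpl39 (-0.0033), Rpl7l1 (-0.091) and Rps3 (-0.045). Of 1160 values of single genes under alternatives, 960 kept their direction and side of the threshold, 126 fell below it, 15 passed it and 59 changed sign. Causes were not tested. The groups hold 2 or 3 libraries each, and counts are low for Rpl24, Rpl36al and Rps10 in the pancreas.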
